A study of Mus musculus with 11 samples.

Results

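The Satb1 locus was taken as chromosome 17 from 51860000 to 52040000 in mouse build mm9, a window of 180 kb. The window held 410 deposited features of 1061984 in the whole series. They were 51 Elf1, 61 Ets1 and 23 Cbfb positions and 1 Foxp3 peak in regulatory T (Treg) cells, and 88 Elf1 and 186 Ets1 positions in CD4 T cells without Foxp3. Satb1 is on the minus strand with its start near 51972600, so higher coordinates lie upstream. The start is the one given with the window, and no mm9 annotation was used here, so exons and introns are not assigned. The window leaves 112.6 kb on the gene side of the start and 67.4 kb upstream. In the RefSeq gene table, which is on GRCm38.p6, the next genes on either side are the long noncoding RNA genes Gm31143 and Gm20098. The next protein-coding genes there are Tbc1d5 and Kcnh8. Members were selected on their position in the window, and the locus itself was chosen by the deposited Elf1 positions, since one lies at the Satb1 start in CD4 cells and not in Treg cells. That difference is therefore described below and not tested.

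The study mapped transcription factors by chromatin immunoprecipitation and sequencing (ChIP-seq) in CD4+ T cells from lymph nodes and spleen of mice about 8 weeks old. The cells were sorted without culture on green fluorescent protein, which marked Foxp3, into Foxp3-positive cells, called Treg, and Foxp3-negative cells, called CD4. No treatment of the mice or cells is named in the labels. Foxp3 has 3 libraries of 2 replicates, pooled into 1 peak list. Elf1, Ets1 and Cbfb in Treg, and Elf1 and Ets1 in CD4, have 1 library each, so no difference below has a replicate check and no p-value is given. The labels name neither the mouse strain nor any marker of the sort beyond CD4 and Foxp3.

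Satb1 is a nuclear protein that binds AT-rich DNA and arranges chromatin loops in T cells. It is needed for T cell development in the thymus, and Foxp3 is known as a repressor of Satb1 in Treg cells. Elf1 and Ets1 are ETS family factors that recognise a GGAA core and are present in resting T cells. Cbfb is the partner that strengthens DNA binding by Runx proteins.

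The farthest upstream of 5 Satb1 starts in the RefSeq promoter table is shown because the Foxp3 peak lay at the start of this gene. The 250 bases before that start, on GRCm38.p6, are chr17:51833291-51833540 on the minus strand. They are read 5′ to 3′, with GGAA or its reverse complement TTCC in capitals:
Satb1 promoter: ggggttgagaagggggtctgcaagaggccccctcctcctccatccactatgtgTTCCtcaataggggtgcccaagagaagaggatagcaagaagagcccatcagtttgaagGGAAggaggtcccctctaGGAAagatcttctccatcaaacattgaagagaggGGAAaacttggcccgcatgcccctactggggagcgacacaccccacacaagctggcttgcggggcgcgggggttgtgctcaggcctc
The stretch held 4 matches to GGAA on either strand. At least 1 such match was present in 93.4% of 32851 promoter stretches of the same length, with a mean of 2.91 matches. The longer ETS motif AGGAAGT, present in 7.69% of promoters, had no match in this stretch and 1 match before another of the 5 Satb1 starts, 83 bases upstream of it. The Runx motif TGTGGT (14.0% of promoters) and the forkhead motif GTAAACA (3.17%) had no match in the 250 bases before any of the 5 Satb1 starts. AGGAAGT matches are also GGAA matches. The builds differ, so these bases were not placed against the ChIP-seq positions.

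At the Satb1 start, Foxp3, Ets1 of both cell types and CD4 Elf1 lay within 1 interval of 200 bp. The Foxp3 peak spanned 51972490 to 51972690, and its centre was 10 bp from the given start. It was the 1 Foxp3 peak in the window. CD4 Elf1 was placed at 51972598 (8 bp from the peak centre), with a fold enrichment of 14.2 and a lower bound of 4.85. CD4 Ets1 was placed at 51972577, at 23.9-fold (lower bound 6.97). Treg Ets1 was placed at 51972514, at 16.6-fold (lower bound 4.39). All 3 lower bounds were well above 1, the value of no enrichment, and the intervals from lower bound to estimate overlapped. The false discovery rate (FDR) was at most 0.01 for each.

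Treg Elf1 had no deposited position of any FDR within 1 kb of that CD4 Elf1 position. The nearest lay upstream at 51973794, 1196 bp away, at 5.38-fold (lower bound 1.29). On the gene side the next one, named after its value was seen, was at 51970417, at 7.34-fold. The Treg Elf1 list as deposited ended at an FDR of 0.0989, whereas CD4 Elf1 was listed to 0.198, so a weak Treg position could be unlisted. Among the 10 CD4 Elf1 positions of highest score in the window, 3 had no Treg Elf1 position within 1 kb, with nearest distances of 1196, 1590 and 2181 bp. For those of the 10 inside the limit, the farthest neighbour was at 512 bp. Over the whole library, 18.2% of the 20000 highest CD4 Elf1 scores had no Treg Elf1 position within 1 kb. The position at the start, by which the locus was chosen, is among the 3 without a Treg Elf1 position. It had the second highest score of CD4 Elf1 in the window and was 4882nd of 241359 in its library.

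The combination of lists at the Satb1 start was among the values that chose the locus, so its frequency is given as a description and nothing is read from it. CD4 Elf1, CD4 Ets1 and Treg Ets1 without Treg Elf1, at an FDR of at most 0.01 and within 200 bp, occurred at 168 of 2886 Foxp3 peaks (5.82%). At 65 of them (2.25%) no Treg Elf1 position of any FDR lay within 1 kb. Over all Foxp3 peaks, 85.2% had Treg Elf1, 88.9% CD4 Elf1, 83.5% Treg Ets1, 89.0% CD4 Ets1 and 28.1% Treg Cbfb. No Treg Cbfb position lay near the Satb1 peak: the closest, at 51965030, was 7560 bp from its centre, at 5.75-fold and rank 86089.

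**Figure D1:**
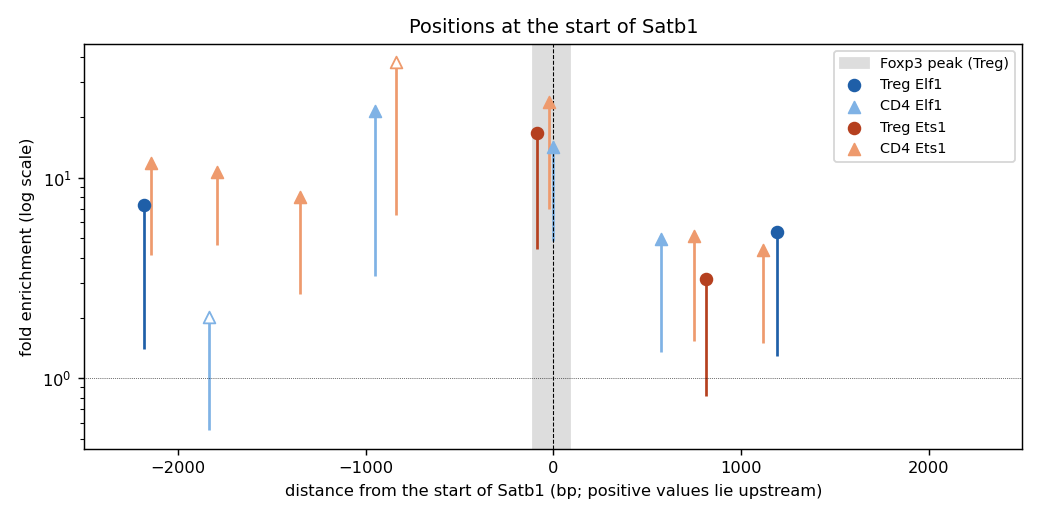
Fold enrichment (log scale) of all deposited positions within 2500 bp of the Satb1 start against distance in bp, with a line down to the deposited lower bound. Circles are Treg and triangles CD4 libraries, open symbols have an FDR above 0.01, and the grey band is the Foxp3 peak. The band holds Treg Ets1 at 16.6-fold, CD4 Ets1 at 23.9-fold and CD4 Elf1 at 14.2-fold, and no Treg Elf1.

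Further positions lay within 1 kb of the start. On the gene side CD4 Elf1 had a position at 51971651 (21.5-fold, lower bound 3.23). CD4 Ets1 had one at 51971762 that was 37.6-fold but missed the FDR limit, at 0.0380. Upstream, a second group joined CD4 Elf1 at 51973172 (4.97-fold), CD4 Ets1 at 51973348 (5.10-fold) and Treg Ets1 at 51973414 (3.14-fold, lower bound 0.812). These 3 had lower fold values than the positions in the Foxp3 peak.

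Across the window, CD4 Ets1 was the most densely placed factor. At an FDR of at most 0.01 it had 82 positions (exact Poisson 95% interval 65.2 to 102), CD4 Elf1 had 44 (32.0 to 59.1) and Treg Elf1 43 (31.1 to 57.9). Treg Ets1 had 26 (17 to 38.1) and Treg Cbfb 16 (9.15 to 26.0). Intervals cover counting error alone, and neighbouring positions need not be independent. The share of deposited positions that passed the limit was 44.1% for CD4 Ets1 against 17.4% in its whole list, 50% against 22.2% for CD4 Elf1, and 42.6% against 27.3% for Treg Ets1. For Treg Elf1 (84.3% against 84.0%) and Treg Cbfb (69.6% against 75.2%) the share was close to that of the list.

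The counts were set beside 14009 tiles of 180 kb covering the numbered chromosomes and X, without the tiles that overlap the window. For CD4 Ets1 the mean was 2.99 per tile and 2 tiles (0.0143%) reached 82. For CD4 Elf1 the mean was 3.81, and 1 tile (0.00714%) reached 44. At least as many Treg Elf1 positions as in the Satb1 window lay in 33 tiles (0.236%), and at least as many Treg Ets1 positions in 89 tiles (0.635%). The Treg Cbfb count was reached in 807 tiles (5.76%). The window limits were not set on this grid. In the grid tile that covers most of the window, from 51840000 to 52019999, CD4 Ets1 had 80 positions and 2 tiles had more, while CD4 Elf1 had 39 and 5 tiles had more. With all deposited positions, that tile had 183 CD4 Ets1 positions and no tile of the genome had more.

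**Figure D2:**
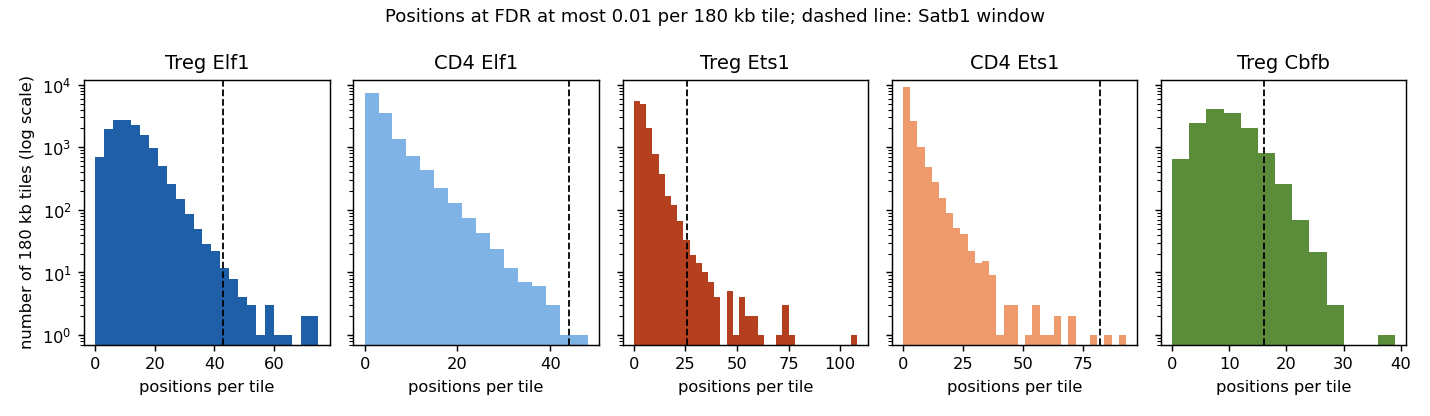
Number of 180 kb tiles (log scale) by the number of positions at an FDR of at most 0.01 per tile, 1 panel per library. The dashed line is the Satb1 window, at 43, 44, 26, 82 and 16 positions from left to right, and it stands farthest into the tail for the CD4 libraries.

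The window held 1 Foxp3 peak, at the low end for tiles dense in CD4 Ets1. Of the 20 other tiles with at least 41 CD4 Ets1 positions, all held a Foxp3 peak, with a median of 4.5 and a maximum of 13, and 2 (10%) had no more than the 1 of the Satb1 window. The tiles with 91, 85 and 78 CD4 Ets1 positions held 2, 5 and 2. Over all tiles 11.7% held a Foxp3 peak.

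Ets1 positions were more numerous in CD4 than in Treg at this locus. At an FDR of at most 0.01 there were 82 against 26, a ratio of 3.15 (exact 95% interval 2.01 to 5.11), while the whole lists had the opposite order with a ratio of 0.681. CD4 made up 75.9% of the Ets1 positions in the window. The median over 992 tiles with at least 20 Ets1 positions was 50%, and 4 tiles had a share as high. Among the 10000 highest scores of each library the counts were 17 and 2. Among all deposited positions they were 186 and 61, a ratio of 3.05 against 1.07 in the whole lists. The depth of the libraries is unknown, and with 1 library per cell type a difference between cells and a difference between libraries cannot be told apart.

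The densest other tiles had a smaller excess of CD4 Ets1 or none. On chromosome 14 from 54720000 to 54899999 there were 91 CD4 and 61 Treg Ets1 positions. On chromosome 9 from 32400000 to 32579999 the counts were 85 and 107. The third, on chromosome 11 from 11520000 to 11699999, was nearer to Satb1 in this respect, with 78 and 33.

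For Elf1 the comparison depended on the list. At an FDR of at most 0.01 the window had 44 CD4 and 43 Treg positions, a ratio of 1.02 (0.657 to 1.60), while the whole lists had 0.340. Of 3421 tiles with at least 20 Elf1 positions, 185 (5.41%) had a CD4 share as high as 50.6%. At an FDR of at most 0.001 the window had 22 CD4 and 36 Treg positions. The whole-list ratio at that limit is not given, so whether the window differs from its lists there was not tested. Among the 10000 highest scores the counts were 7 and 4, a ratio of 1.75 (0.445 to 8.15). These intervals cover counting error alone, so a difference between cell types was not tested. Among all deposited positions they were 88 and 51, a ratio of 1.73 (1.21 to 2.49) against 1.29 in the whole lists.

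The positions were concentrated on the gene side of the start. CD4 Ets1 had 6.22 positions per 10 kb there and 1.78 upstream. The same densities were 3.02 and 1.48 for CD4 Elf1, 1.87 and 0.742 for Treg Ets1, and 1.24 and 0.297 for Treg Cbfb. Treg Elf1 was nearly even, at 2.49 and 2.23. In steps of 20 kb, the 2 richest were 51940000 to 51959999 with 47 positions of all libraries and 51960000 to 51979999, which holds the start, with 35. The 3 steps upstream of these held 12, 12 and 15. A stretch of 10444 bp without any position at this FDR began 1194 bp upstream of the start, and the longest such stretch, 15765 bp, ran from 52000266 to 52016031. The farthest CD4 Ets1 position from the start on the gene side was 99.9 kb away.

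**Figure D3:**
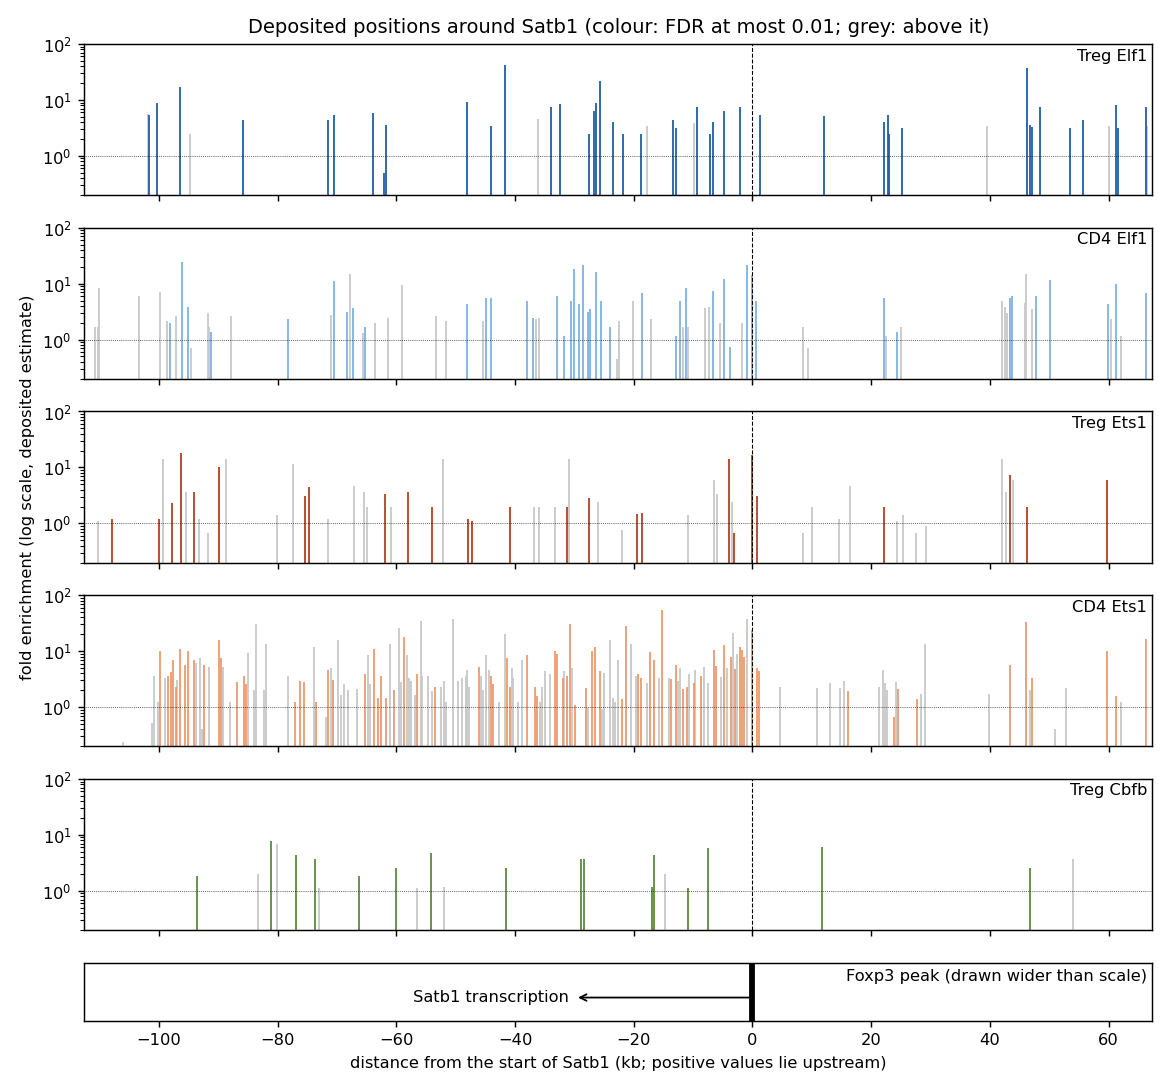
Fold enrichment (log scale) of every deposited position in the Satb1 window against distance from the start in kb, 1 panel per library, with positions at an FDR of at most 0.01 in colour and others in grey. CD4 Ets1 fills the gene side, at 6.22 positions per 10 kb, and thins to 1.78 upstream, and the single Foxp3 peak is at the start.

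Many of these positions were weakly enriched. The median fold at an FDR of at most 0.01 was 4.26 for CD4 Ets1 (whole list 4.61), 2.58 for Treg Ets1 (3.71), 4.97 for CD4 Elf1 (4.97), 5.24 for Treg Elf1 (5.71) and 3.66 for Treg Cbfb (4.36). The lower bound of fold was above 1 at 51 of 82 CD4 Ets1 positions (background 61.2%), 29 of 44 CD4 Elf1 (55.3%), 28 of 43 Treg Elf1 (53.0%), 9 of 26 Treg Ets1 (42.3%) and 3 of 16 Treg Cbfb (37.0%). Treg Ets1 and Treg Cbfb had the lowest shares in the window and also in the whole lists. With this added limit Ets1 counted 51 positions in CD4 and 9 in Treg.

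Positions of Elf1 by score began with a site 61.2 kb upstream. There CD4 Elf1 at 52033823 had the highest score of its library in the window (rank 2241, 9.83-fold, lower bound 4.88). Treg Elf1 at 52033803, 20 bp away, had the highest score of its own (rank 3459, 8.09-fold, lower bound 3.58). CD4 Ets1 was present at 52033780 at 1.59-fold with a lower bound of 0.558. The 2 Elf1 fold values lay close together, and that of CD4 Ets1 was lower than both.

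By CD4 Elf1 score the position at the start came second. The third lay 4.80 kb from the start on the gene side. Treg Elf1 was at 51967776 (6.25-fold, rank 7967) and CD4 Elf1 at 51967803 (12.0-fold, rank 4977). CD4 Ets1 had its highest score of the window there, at 51967773 (13.0-fold, rank 3738). Further CD4 Elf1 positions of high score lay at 51902043 (11.1-fold) and 51965984 (7.34-fold). A Treg Elf1 position lay 102 bp from the first and 86 bp from the second. The other high Treg Elf1 scores were at 51924471 (9.30-fold), 51908701 (5.94-fold) and 52019703 (3.34-fold).

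Treg Ets1 had its highest score 97.8 kb into the gene side, at 51874771 (rank 1694), but a fold of 2.36 with a lower bound of 0.720. Its second was the promoter position (rank 3369). The third was at 51968721 (14.0-fold, lower bound 3.56) and the fourth at 51876326 (18.0-fold, lower bound 2.39). The fifth, at 51924662, was 1.20-fold with a lower bound of 0.0753. Score and fold thus ordered the positions differently.

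CD4 Ets1 followed its highest score with positions at 51939737 (8.84-fold), 51953886 (3.37-fold), 51882757 (15.8-fold) and 51966108 (10.4-fold). All 5 lay on the gene side. By score, the promoter position of CD4 Ets1 was lower, at rank 16398, despite 23.9-fold.

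Positions of high score without the same factor in the other cell type occurred for both factors. Of the 20000 highest scores of each library, the window held 12 CD4 Elf1 positions, of which 3 had no Treg Elf1 position within 1 kb (background 18.2%). It held 49 CD4 Ets1 positions, of which 12 lacked Treg Ets1 (21.1%). It held 9 Treg Elf1 positions, of which 2 lacked CD4 Elf1 (30.6%), and 6 Treg Ets1 positions, none of which lacked CD4 Ets1 (30.2%). The shares for CD4 were near their backgrounds, but that of CD4 Elf1 counts the position by which the locus was chosen. The CD4 Elf1 position at the start was the one with the highest fold of its 3. The others, at 51874528 and 51904326, had 1.96- and 3.08-fold and lower bounds under 1. The 2 Treg Elf1 positions were at 51930893 (41.6-fold, lower bound 6.63) and at 51984593 (5.24-fold, lower bound 1.55).

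Of the 12 CD4 Ets1 positions, the one at 51957284 had the highest fold of any position passing the FDR limit in the window, at 54.6 (lower bound 9.82). Its nearest Treg Ets1 position was 3379 bp away. Those at 52038950 (16.6-fold) and 51970810 (10.7-fold) came next, and the other 9 ran from 1.07- to 8.01-fold.

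Counterparts within 200 bp in the other cell type were more frequent than in the whole list when viewed from Treg. For Treg Elf1, 13 of 43 positions (30.2%, exact 95% interval 17.2 to 46.1) had a CD4 Elf1 counterpart, against 11.4%. For Treg Ets1, 14 of 26 (53.8%, 33.4 to 73.4) had one, against 18.7%. Viewed from CD4, 14 of 44 Elf1 positions (31.8%) had one against 32.5%, and 15 of 82 Ets1 positions (18.3%) against 27.7%. Bases within 200 bp of a CD4 Ets1 position made up 18.0% of the window and those within 200 bp of a CD4 Elf1 position 9.73%. The part of this dense placement in the shares from Treg was not tested.

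Counting counterparts of any FDR within 200 bp, the shares were 17 of 43 for Treg Elf1 (background 16.7%), 14 of 44 for CD4 Elf1 (34.2%), 19 of 26 for Treg Ets1 (28.1%) and 24 of 82 for CD4 Ets1 (37.8%). The same factor was without any position within 1 kb in the other cell type at 8 of 43 Treg Elf1 positions (background 65.0%) and 1 of 26 Treg Ets1 positions (51.7%). From CD4 it was so at 18 of 44 Elf1 (49.4%) and 22 of 82 Ets1 positions (39.2%). The window held 88 CD4 Elf1 and 186 CD4 Ets1 positions of any FDR, far more than most tiles, and the part of this density in the low shares from Treg was not tested.

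At these pairs the fold enrichment was mostly lower in Treg. It was lower at 9 of 13 Elf1 pairs (background 57.7%), with a median Treg minus CD4 log2 ratio of -0.52 (SD over pairs 1.08) against -0.17 over 17926 pairs. It was lower at 12 of 14 Ets1 pairs (68.5%), with a median of -0.79 (SD 1.23) against -0.44 over 11551 pairs. Without replicates, whether these medians differ from those of the whole lists was not tested. The Ets1 pair in the Foxp3 peak, at 16.6-fold in Treg and 23.9-fold in CD4, had -0.52. Further pairs are given for their size, chosen after their values were seen. The widest Ets1 gap was at 52018678, where CD4 had 32.8-fold and Treg, 165 bp away, 2.00-fold with a lower bound of 0.121. The Elf1 pair with the largest Treg excess was at 51946967, at 22.0-fold (lower bound 2.93) against 4.97-fold (lower bound 0.945). Its ranks by score were 70422 in Treg and 25197 in CD4. With lower bounds above 1 in both libraries, 4 Ets1 pairs were left, 2 lower and 2 higher in Treg, and their median was -0.06. Of Elf1 pairs 7 were left, 5 of them lower in Treg, with a median of -0.84.

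**Figure D4:**
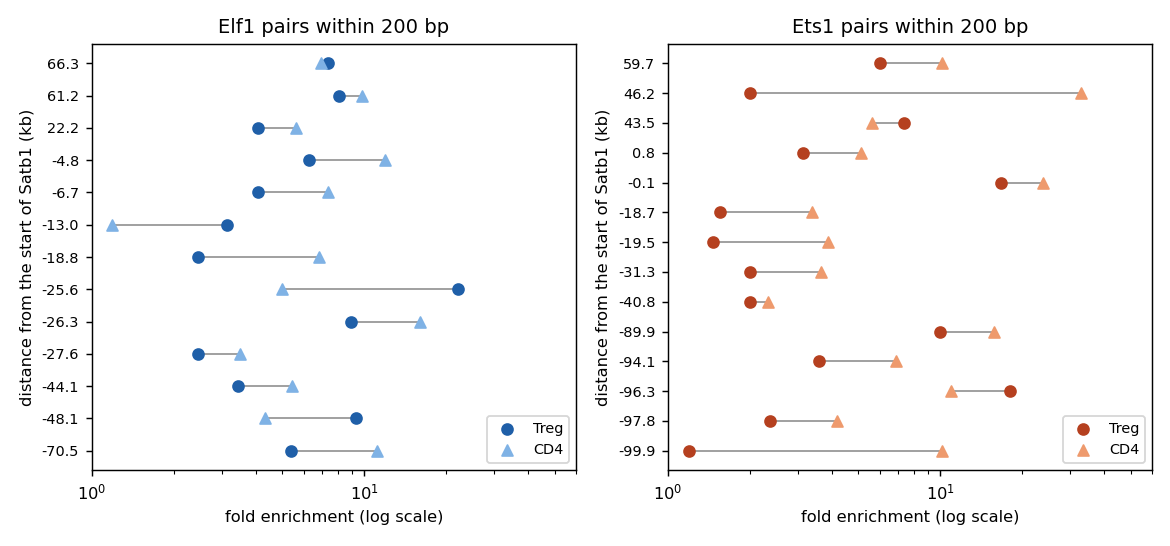
Fold enrichment (log scale) of paired positions within 200 bp in Treg (circles) and CD4 (triangles), ordered by distance from the Satb1 start in kb of the Treg position, with negative values on the gene side. Treg was lower at 9 of 13 Elf1 pairs (background 57.7%) and 12 of 14 Ets1 pairs (background 68.5%). With lower bounds above 1 in both libraries, it was lower at 5 of 7 Elf1 and 2 of 4 Ets1 pairs.

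Joined at gaps of at most 200 bp, the 211 positions at an FDR of at most 0.01 and the Foxp3 peak formed 133 sites. Of these, 82 held 1 list, 29 held 2, 19 held 3 and 3 held 4, and none held more. CD4 Ets1 stood alone at 36 sites, Treg Elf1 at 17, CD4 Elf1 at 14, Treg Cbfb at 8 and Treg Ets1 at 7. The same site counts over the whole lists are not given, so whether these numbers are usual was not tested. The 3 richest sites were the promoter, a site at 51876118 to 51876433 and a site at 51953801 to 51953923. The last 2 held Elf1 and Ets1 of both cell types and no Foxp3 peak.

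At the site 96.3 kb from the start, CD4 Elf1 was 24.8-fold, Treg Ets1 18.0-fold, Treg Elf1 17.1-fold and CD4 Ets1 10.9-fold, each with a lower bound above 1. By score, these positions had ranks 19630, 14257, 114932 and 5014 in that order, so Treg Elf1 was low in its library of 187745. The fold values at the site 18.7 kb from the start were lower. CD4 Elf1 there was 6.81-fold, CD4 Ets1 3.37-fold, Treg Elf1 2.45-fold and Treg Ets1 1.55-fold, and both Treg lower bounds were under 1. Among the Treg libraries, 5 of 43 Elf1 positions had Treg Ets1 within 200 bp (11.6%, background 7.26%). Of the Treg Ets1 positions, 5 of 26 had Treg Elf1 (19.2%, background 17.8%). In CD4, 24 of 44 Elf1 positions had CD4 Ets1 (54.5%, background 27.5%), and 24 of 82 Ets1 positions had CD4 Elf1 (29.3%, background 35.3%). Across cell types, 19 of 43 Treg Elf1 positions had CD4 Ets1 (44.2%, background 8.44%). In reverse, 19 of 82 CD4 Ets1 positions had Treg Elf1 (23.2%, background 30.7%). Bases within 200 bp of a CD4 Ets1 position made up 24.3% of the gene side and 7.35% upstream. The part of this density in the shares was not tested.

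Cbfb positions had low fold values at this locus, although their number was above the tile mean of 8.67. The highest scores were at 51912471 (rank 3180, 2.61-fold) and 51961786 (rank 8113, 1.12-fold). Those at 51931077, 51895727 and 51891416 followed, at 2.61-, 4.36- and 7.84-fold, and only the last of the 5 had a lower bound above 1, at 1.49. Of the 16 Cbfb positions, 8 (50%, 24.7 to 75.3) lay within 200 bp of an Elf1 or Ets1 position of either cell type, against 8.74% of the whole list. Bases within that distance made up 29.8% of the window. They made up 38.0% of the gene side, where 14 of the 16 Cbfb positions lay, and 16.0% upstream. The part of this in the share was not tested. By list, 5 of the 16 had CD4 Ets1 (background 2.58%), 2 had Treg Elf1 (5.14%), 1 had CD4 Elf1 (2.76%) and 1 had Treg Ets1 (2.97%). In the other direction, Treg Cbfb lay near 2 of 43 Treg Elf1 positions (background 4.06%) and 1 of 26 Treg Ets1 positions (5.88%), close to the whole lists. The site at 51930893 to 51931216 joined Cbfb at 2.61-fold with Treg Elf1 at 41.6-fold and CD4 Ets1 at 7.69-fold.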

How the data were processed

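Reads were aligned with Bowtie 0.12.7 to mm9, per the submitters' processing notes. The authors deposited Foxp3 peaks as intervals from combined replicates, per the labels, and single-base positions for 5 other libraries. Per the file headers, each position has a score, an E-value, an FDR (q-value), and a fold enrichment as lower bound and maximum likelihood ratio. Ranks here follow the score. The caller, its control, its thresholds and the read depth are not given in the sources used here, so scores and fold values were compared across libraries only as deposited. Libraries of inputs and of CD4 Cbfb were not analysed here.

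The window, members and lists were chosen with earlier results of these data known. The main lists held positions whose FDR did not exceed 0.01, and 200 bp was the limit for shared positions. Named positions were the nearest of each library to the Foxp3 peak and all within 1 kb of the start. The 5 highest scores per library and the highest score of each site of 4 or more lists were also named. So were Elf1 or Ets1 positions among the 20000 highest scores with no counterpart of any score within 1 kb. The other members of sites of 4 or more lists were given outside this rule. The alternatives were stricter or looser lists, lists of equal length, other distances, the 2 sides of the start and other measures of enrichment. Shares have exact Clopper-Pearson and counts exact Poisson 95% intervals. Functions were tested on simulated data. Python 3.11.15, numpy 2.4.6, pandas 2.3.3, scipy 1.17.1 and matplotlib 3.10.9 were used.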

Additional observations from a re-analysis of the deposited data

How the results depend on the processing

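No paired analysis was possible because each position list comes from 1 library and the Foxp3 list pools its replicates. For the same reason no replicate could be left out. Counts of positions depended on the list. At an FDR of at most 0.001 the window held 36 Treg Elf1, 22 CD4 Elf1, 7 Treg Ets1, 50 CD4 Ets1 and 7 Cbfb positions. With all deposited positions it held 88 CD4 Elf1, 61 Treg Ets1 and 186 CD4 Ets1. Among the 10000 highest scores it held 4 Treg Elf1, 7 CD4 Elf1, 2 Treg Ets1, 17 CD4 Ets1 and 2 Cbfb, and among the 20000 highest 9, 12, 6, 49 and 4. With a lower bound of fold above 1, an alternative chosen after seeing the data, it held 28, 29, 9, 51 and 3. Upstream of the start lay 15, 10, 5, 12 and 2, and on the gene side 28 Treg Elf1. CD4 Ets1 stayed the most numerous list in each of these settings except upstream, where Treg Elf1 had more. Sites of 2 or more lists numbered 51, against 23 at the stricter FDR, 102 with all positions, 5 and 15 with the 10000 and 20000 highest scores, 22 with the lower bound and 31 when joined at 1000 bp. Among the 10000 highest scores the Foxp3 peak had 0 CD4 Ets1 positions. For the other 4 libraries the count at the Foxp3 peak was the same under every alternative run.

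Shares with a counterpart also moved. For Treg Elf1 the share was 50% with the 10000 highest scores, over 4 positions (exact interval 6.76 to 93.2), and 62.8% at 1000 bp. For CD4 Elf1 it was 16.7% with the 20000 highest, over 12 positions (2.09 to 48.4), and 52.3% at 1000 bp. For Treg Ets1 it was 0% with the 10000 highest, over 2 positions (0 to 84.2), and 84.6% at 1000 bp. For CD4 Ets1 it was 6% at the stricter FDR, 7.84% with the lower bound and 45.1% at 1000 bp. With the 10000 highest it was 0% over 17 positions (0 to 19.5), and with the 20000 highest 6.12% over 49 (1.28 to 16.9). Whole-list shares at these settings are not given, so whether the locus differs from its lists there was not tested. The median log2 ratios of pairs stayed below 0 for both factors with lower bounds, scores and all deposited positions. With the added lower-bound limit the Elf1 median was -0.84 over 7 pairs. The Ets1 median was then -0.06 over 4 pairs, 2 lower and 2 higher in Treg, so the lower fold in Treg seen in the longer list was no longer seen. The causes were not tested. The unknown depth limits all comparisons between libraries.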
